A study of Mus musculus with 36 samples.

Results

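The 7 genes Cd7, Klrd1, Cd72, Dpp4, Cd96, Cd5 and Cd79b encode proteins of the cell surface that are best known from T, NK and B lymphocytes, and were followed here in mouse common dendritic progenitors (CDP) and multipotent progenitors (MPP). They were taken by name, as the probe sets that the platform annotation gives to 1 of these symbols, with the brightest probe set over all arrays where a gene had several. Each of the 7 had 1 probe set, and together they were 7 of the 19938 genes tested. The list was selected on earlier results of the same arrays, and which contrast was read for it is not stated. All values of CDP over time, of CDP against MPP and of the difference of their responses are therefore given as a description. No p-value of a member is printed for them, and a call or a count at a p threshold only says which side of it a value lay. The time course of MPP was tested, with adjusted p over all 19938 genes, but it shares its 0 h arrays with the comparison of the untreated cells. Values of MPP may also have been read for the list. The adjusted p of a member in MPP therefore only describes its place in this fit and is no independent test. The rise of Cd96 in MPP was known when the list was made, so its values are a description too. So are the counts and medians over the 7 genes in MPP, which include Cd96.

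MPP can form all blood lineages, and CDP arise from MPP and are committed to plasmacytoid and conventional dendritic cells (DC). Both were obtained from mouse bone marrow by culture with cytokines and were sorted by FACS, so each array holds RNA of a sorted population grown in vitro, in which fewer cells of a type and less RNA per cell cannot be told apart. The groups were CDP and MPP, each given recombinant human TGF-β1 at 10 ng/ml for 2, 4, 8, 12 or 24 h or left untreated (0 h). There were 3 biological replicates in each of the 12 groups and 36 arrays in all. Strain, age and sex of the mice are not given in the sources used here, and 1 protocol text gives 6 h where the sample titles and the methods give 8 h. No untreated arrays at later times were analysed here, so TGF-β1 and time after sorting cannot be told apart in a change against 0 h. Values are log2 levels on Affymetrix Mouse Gene 1.0 ST arrays, in which 1 unit is a doubling. Changes are differences of log2 levels ± SE of the limma fit (3 arrays per group), and a gene was called at an adjusted p under 0.01 with a log2 change of 1 or more in size. Levels were compared between samples for each gene. Where a gene is termed bright or dim, this describes its signal on the array and does not compare amounts of RNA between genes.

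Cd7 is an immunoglobulin superfamily receptor of T and NK cells and of early lymphoid progenitors, whose ligands are the Sectm1 proteins. Klrd1 encodes CD94, a C-type lectin that pairs with NKG2 chains (Klrc1, Klrc2, Klrc3) and reads the non-classical MHC molecule Qa-1. Cd72 is a C-type lectin-like co-receptor of B cells that recruits the phosphatase SHP-1 (Ptpn6) and binds the semaphorin Sema4d, and Cd5 is a scavenger receptor family protein that dampens antigen receptor signalling in T cells and in a class of B cells. Dpp4 (CD26) is a membrane peptidase that trims chemokines such as Cxcl12 and, in human, binds adenosine deaminase. Cd96 is a nectin receptor of T and NK cells that shares its ligand Pvr (CD155) with Tigit and Cd226, and Cd79b is 1 of the 2 signalling chains of the B cell receptor. Several of them, among them Cd72 and Dpp4, are also known from dendritic cells. TGF-β1 acts through receptor kinases and Smad proteins, and is known to be needed for Langerhans cells, the DC of the epidermis.

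The annotation used here held the sequence before the start of 4 of the 7 genes, Cd72, Dpp4, Cd96 and Cd5. It is shown because these 4 genes, all higher in untreated CDP, went different ways over the time course. The sequences are the 250 bases before the annotated start in RefSeq (GRCm38.p6), 5′ to 3′ on the strand of the gene, which is the minus strand for all 4. They lie at chr4:43454627-43454876 (Cd72), chr2:62412232-62412481 (Dpp4), chr16:46120249-46120498 (Cd96) and chr19:10738975-10739224 (Cd5). Capitals mark matches, on either strand, to the letters of a Smad box (CAGAC), a PU.1 core (GGAAGT), a Runx motif (ACCACA) or an E-box (CACCTG).
Cd72: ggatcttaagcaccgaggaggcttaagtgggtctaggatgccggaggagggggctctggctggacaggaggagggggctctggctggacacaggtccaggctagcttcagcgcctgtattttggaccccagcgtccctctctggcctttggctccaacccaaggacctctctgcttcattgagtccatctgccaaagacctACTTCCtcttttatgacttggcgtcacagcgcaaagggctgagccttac
Dpp4: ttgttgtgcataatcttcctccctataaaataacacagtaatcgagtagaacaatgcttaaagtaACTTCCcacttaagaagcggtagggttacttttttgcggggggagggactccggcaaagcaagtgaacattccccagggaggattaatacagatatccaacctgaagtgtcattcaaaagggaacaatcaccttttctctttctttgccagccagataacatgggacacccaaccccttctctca
Cd96: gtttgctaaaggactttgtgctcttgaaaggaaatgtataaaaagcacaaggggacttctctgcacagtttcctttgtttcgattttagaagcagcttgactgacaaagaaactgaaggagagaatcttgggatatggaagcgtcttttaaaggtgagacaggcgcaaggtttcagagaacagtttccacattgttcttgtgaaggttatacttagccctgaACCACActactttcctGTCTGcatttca
Cd5: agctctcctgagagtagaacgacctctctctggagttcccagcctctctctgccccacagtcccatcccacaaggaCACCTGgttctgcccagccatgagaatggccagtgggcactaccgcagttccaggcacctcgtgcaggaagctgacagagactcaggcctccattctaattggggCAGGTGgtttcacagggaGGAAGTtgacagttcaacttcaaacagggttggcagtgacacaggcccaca

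The Cd96 stretch held a Smad box on the opposite strand, 12 to 8 bases before the start, and a Runx motif 28 to 23 bases before it. The Cd5 stretch held a PU.1 core 51 to 46 bases before the start and a pair of E-boxes, 174 to 169 bases before it and, on the opposite strand, 69 to 64 bases before it. In Cd72 and Dpp4 the only match was a PU.1 core on the opposite strand, 49 to 44 bases before the start of Cd72 and 185 to 180 bases before that of Dpp4. No 2 matches overlapped. Of 32851 RefSeq stretches of the same length, 42.2% held CAGAC, 19.7% GGAAGT, 14% ACCACA and 17.2% CACCTG, so none of these words is rare. The GC content was 58.0% for Cd72, 56.8% for Cd5, 43.6% for Dpp4 and 41.2% for Cd96. A match is a run of letters and was not tested as a site.

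Untreated CDP and untreated MPP were compared first. All 7 genes had higher means in CDP, and no CDP array overlapped an MPP array at 0 h for any of them. In 4 genes the difference was of another size than in the rest: Klrd1 was 4.81 ± 0.23 log2 units higher in CDP (28-fold), Cd7 4.59 ± 0.20 (24.1-fold), Dpp4 4.20 ± 0.24 (18.3-fold) and Cd72 4.03 ± 0.20 (16.3-fold). Ordered by this difference over all genes, they stood at places 2, 3, 4 and 6. Cd5 was 1.76 ± 0.16 higher, Cd96 1.27 ± 0.18 and Cd79b 0.98 ± 0.10, at places 79, 180 and 292. By the threshold, 6 of the 7 were called higher in CDP and Cd79b fell just short, where 1.26% of all genes were called higher and 1.55% lower. The median over the 7 genes was 4.03, against 0.03 over all genes. The list may have been selected on values of this kind, so they stand as a description and nothing is concluded from them.

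On single arrays the separation was wide. Klrd1 stood at 11.05, 11.25 and 11.28 in untreated CDP, against 6.23, 6.45 and 6.47 in untreated MPP. Cd7 stood at 12.18, 12.45 and 11.86 in untreated CDP, against 7.45, 7.63 and 7.64 in untreated MPP. Both genes were thus among the bright genes of CDP and near or below the array median (7.87 to 7.96) in MPP. Cd79b showed the other extreme, with 12.27, 12.23 and 12.21 in untreated CDP against 11.31, 11.26 and 11.21 in untreated MPP, a bright signal in both cells.

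**Figure D1:**
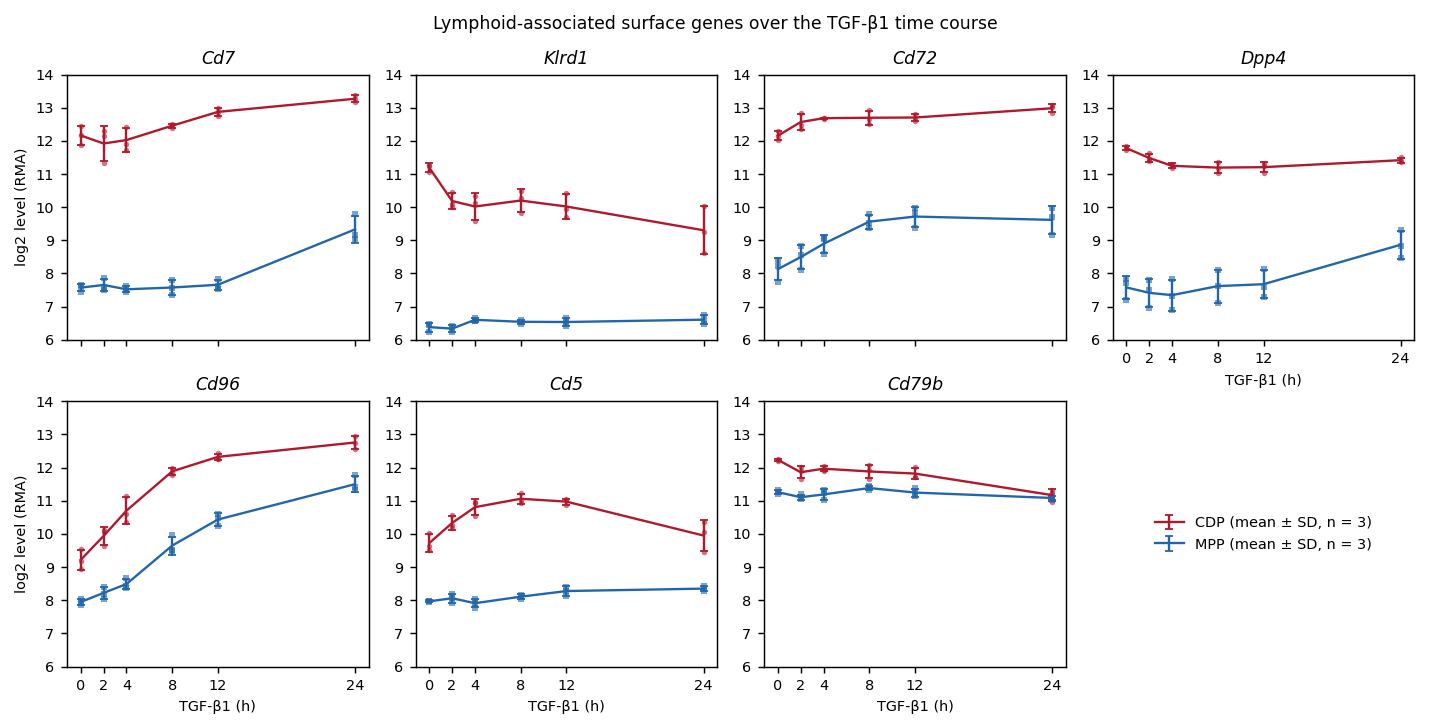
Log2 level (RMA) of the 7 genes against hours of TGF-β1 in CDP (red circles) and MPP (blue squares), with single arrays as points and lines through the means with SD (n = 3). In 5 genes every CDP array lies above every MPP array, while Cd96 in MPP at 24 h (mean 11.50) passes the untreated CDP level (9.22) and Cd79b meets the MPP level at 24 h.

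In CDP the 7 genes did not move together. At 24 h against 0 h, Cd96 and Cd7 rose, Klrd1 and Cd79b fell, and Cd72, Dpp4 and Cd5 were not called. The counts of members called higher and lower were 2 and 1 at 4 h, 2 and 0 at 8 h, 2 and 1 at 12 h, and 2 and 2 at 24 h. At 2 h limma called 0 in either direction, with 3 higher and 3 lower at an unadjusted p under 0.05, and of all genes 0.266% were called higher and 0.0602% lower. At 8 h, where 0 were called lower, 3 were lower at an unadjusted p under 0.05. Over all genes the shares called higher and lower were 0.431% and 0.271% at 4 h, 0.722% and 0.547% at 8 h, 0.858% and 0.998% at 12 h, and 1.35% and 1.79% at 24 h. The median change of the 7 genes at 24 h was 0.23, against 0.00 over all genes. Since CDP values may have chosen the genes, the shares stand beside the counts as a description.

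In MPP the members called were all higher after TGF-β1. At 24 h 4 of the 7 were called higher and 0 lower by limma, with 6 higher and 1 lower at an unadjusted p under 0.05, and the shares of all genes called were 0.717% higher and 0.487% lower. The median change was 1.29, against −0.01 over all genes. At 8 h and at 12 h 2 of the 7 were called higher, Cd96 and Cd72 both times, where 0.461% and 0.507% of all genes were, and none of the 7 was lower at an unadjusted p under 0.05. At 4 h limma called 0 members, with 3 higher and 1 lower at an unadjusted p under 0.05 (0.281% of all genes were called higher and 0.135% lower). At 2 h it also called 0, with 2 higher and 2 lower before adjustment (0.226% of all genes higher and 0.0451% lower). The 0 h MPP arrays, from which these changes are taken, are also those of the comparison between untreated cells, in which all 7 genes were lower in MPP. If the list was selected on that comparison, a rise from 0 h was favoured. That limit, and the possibility that MPP values were read for the list, also apply to the p-values printed for single genes in MPP. The counts and the median include Cd96, whose rise was known, and stand as a description.

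**Figure D2:**
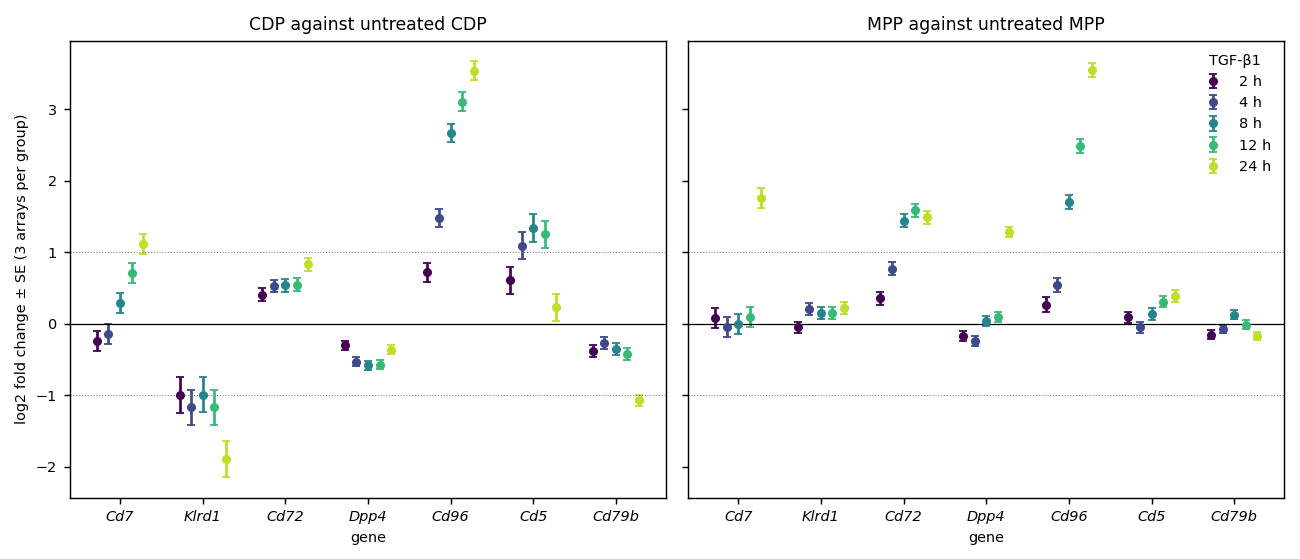
Log2 fold change ± SE against 0 h of the 7 genes at 2, 4, 8, 12 and 24 h in CDP (left) and MPP (right), with 3 arrays per group and dotted lines at the threshold of 1. At 24 h the changes in CDP spread in both directions, between −1.89 (Klrd1) and 3.54 (Cd96). Those in MPP at 24 h lie between −0.17 (Cd79b) and 3.55 (Cd96).

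Cd96, the nectin receptor, had the greatest change of the 7 in both cells. Its mean levels in CDP were 9.22, 9.94, 10.70, 11.89, 12.32 and 12.76 at 0, 2, 4, 8, 12 and 24 h. In MPP they were 7.95, 8.22, 8.49, 9.65, 10.44 and 11.50 at the same times. The mean went up at each step in both cells. On single arrays it stood at 12.74, 12.96 and 12.57 in CDP at 24 h, against 8.93, 9.53 and 9.19 in untreated CDP. In MPP it stood at 11.78, 11.31 and 11.41 at 24 h, against 7.87, 7.93 and 8.04 in untreated MPP. Neither pair of groups overlapped, and the rise was seen in 3 of 3 same-numbered pairs in each cell type.

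The change of Cd96 at 24 h was 3.54 ± 0.13 in CDP (11.6-fold) and 3.55 ± 0.10 in MPP (11.7-fold). Before that, CDP was ahead: the changes in CDP were 0.72 ± 0.13 at 2 h, 1.48 ± 0.13 at 4 h and 2.67 ± 0.13 at 8 h, the last 2 of them called. In MPP they were 0.27 ± 0.10 at 2 h, 0.54 ± 0.10 at 4 h and 1.70 ± 0.10 at 8 h, the last of them called. The CDP change minus the MPP change was 0.45 ± 0.18 at 2 h, 0.94 ± 0.18 at 4 h and 0.97 ± 0.18 at 8 h. At 12 h it was 0.62 ± 0.18, and it was called at none of these times. From 12 to 24 h Cd96 gained another 0.43 ± 0.13 in CDP and 1.06 ± 0.10 in MPP. The difference between the cells was thus 1.27 at 0 h, 2.24 at 8 h and 1.26 at 24 h. In the order of the 12 group means MPP at 24 h came after CDP at 8 h and before CDP at 4 h, with no overlap to either, so the treated MPP lay above untreated CDP in this gene alone.

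No other measured member of the ligand network of Cd96 was called higher at 24 h in either cell. Of the 8 measured genes of its family and ligands (11 listed), 0 were called higher at 24 h in CDP by limma, with 2 higher at an unadjusted p under 0.05, and 1 was called lower. Of all genes, 1.35% were called higher and 1.79% lower in CDP at 24 h. The competing receptor Tigit was at 8.06 in CDP at 24 h and 8.06 at 0 h, and at 7.79 in MPP at 24 h and 7.90 at 0 h. Cd226, the activating receptor of the group, changed by 0.50 ± 0.08 in CDP and 0.06 ± 0.06 in MPP, neither called. The ligand Pvr changed by −0.50 ± 0.14 in CDP and −0.41 ± 0.06 in MPP (limma adjusted p = 0.000233 in MPP, under the fold threshold). The gene called lower was the adhesion molecule Cadm1, a ligand of Crtam, with −1.10 ± 0.13 in CDP and −0.26 ± 0.10 in MPP. It was also the 1 gene of these called higher in untreated CDP, by 2.00 ± 0.29. In MPP at 24 h limma called 0 of the 8, with 0 higher and 4 lower at an unadjusted p under 0.05.

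Cd7, the receptor for Sectm1 proteins, rose late in both cells. In CDP its means were 12.16, 11.92, 12.02, 12.45, 12.87 and 13.27 at 0, 2, 4, 8, 12 and 24 h. In MPP they were 7.57, 7.66, 7.52, 7.58, 7.66 and 9.33, flat until 12 h and higher only at the last time. The single arrays stood at 13.26, 13.38 and 13.17 in CDP at 24 h, against 12.18, 12.45 and 11.86 in untreated CDP. In MPP they stood at 9.79, 9.03 and 9.17 at 24 h, against 7.45, 7.63 and 7.64 in untreated MPP. Again neither pair overlapped. The change at 24 h was 1.11 ± 0.14 in CDP (2.15-fold) and 1.76 ± 0.14 in MPP (3.38-fold, limma adjusted p = 2.53e-07). In MPP the step between 12 and 24 h alone was 1.67 ± 0.14, against 0.40 ± 0.14 in CDP, a contrast chosen after the values were seen. The 5 earlier MPP groups overlapped one another, while MPP at 24 h lay apart from them and from every CDP group. Its ligand genes Sectm1a and Sectm1b were dim throughout, at 6.49 and 6.10 in CDP at 24 h, and neither was under an unadjusted p of 0.05 in any of the 3 comparisons (both at 24 h against 0 h and the untreated one).

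Dpp4, the peptidase, went opposite ways. Its means in CDP were 11.78, 11.48, 11.25, 11.19, 11.21 and 11.42 at 0, 2, 4, 8, 12 and 24 h. The values were lowest at 8 h, with a change of −0.58 ± 0.06, and at 24 h the change was −0.36 ± 0.06, never past the fold threshold. The arrays stood at 11.36, 11.50 and 11.39 in CDP at 24 h, all below the 11.72, 11.83 and 11.79 of untreated CDP. In MPP the means were 7.58, 7.42, 7.35, 7.62, 7.68 and 8.87, so here too the step came after 12 h (1.19 ± 0.07 between 12 and 24 h). The arrays stood at 9.31, 8.82 and 8.47 in MPP at 24 h, all above the 7.84, 7.71 and 7.19 of untreated MPP. The change of 1.29 ± 0.07 (2.44-fold) had a limma adjusted p of 2.4e-09 with the replicate number as a block. Replicate 1 was highest and replicate 3 lowest at all 6 times in MPP, and without the block the adjusted p was 0.0168 for the same change.

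Around Dpp4, 1 of 12 measured relatives, partners and substrates was called at 24 h in CDP, where 1.79% of all genes were called lower. The gene called was Ada, the adenosine deaminase, at 8.47 in CDP at 24 h against 9.65 in untreated CDP, a fall of 1.19 ± 0.09 (log2 change −1.19). In MPP it changed by −0.39 ± 0.07 (limma adjusted p = 0.000884, under the fold threshold). Fap, the closest relative of Dpp4, changed by 0.90 ± 0.07 in CDP and 0.09 ± 0.06 in MPP. The substrate gene Cxcl12 stayed dim, at 6.37 in CDP at 24 h and 6.32 in MPP at 24 h, and its receptor gene Cxcr4 changed by −0.61 ± 0.10 in CDP and 0.35 ± 0.04 in MPP (limma adjusted p = 4.86e-06). In MPP limma called 0 of the 12 at 24 h (2 higher and 1 lower at an unadjusted p under 0.05) and 0 between the untreated cells (2 and 1).

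Klrd1, the CD94 lectin, fell in CDP and stayed low in MPP. Its means in CDP were 11.19, 10.19, 10.02, 10.20, 10.02 and 9.31 at 0, 2, 4, 8, 12 and 24 h. The first step came within 2 h (2.01-fold lower, not called), and the arrays at 2 h (10.09, 10.46 and 10.01) already lay below all untreated ones. At 24 h they stood at 9.24, 8.62 and 10.05, against 11.05, 11.25 and 11.28 in untreated CDP, with a change of −1.89 ± 0.25 (3.7-fold lower). The arrays at 24 h spread over more than 1 unit (SD 0.72) and overlapped those of 2, 4, 8 and 12 h. The changes of −1.17 ± 0.25 at 4 h and −1.17 ± 0.25 at 12 h were called, but both calls were lost without the replicate block. The call at 4 h was also lost without any 1 of 5 arrays (replicates 1, 2 and 3 at 0 h and replicates 1 and 3 at 4 h, −1.27 to −1.05), and that at 12 h without any 1 of 5 (replicates 1 and 2 at 0 h and replicates 1, 2 and 3 at 12 h, −1.27 to −1.11). The call at 24 h was kept in each of these alternatives. In MPP the means lay between 6.34 and 6.61 over all 6 times. The arrays stood at 6.76, 6.58 and 6.48 in MPP at 24 h, against 6.23, 6.45 and 6.47 in untreated MPP, a change of 0.22 ± 0.08 that was not called (limma adjusted p = 0.0825).

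Some lectins of the NK gene complex were lower in CDP at 24 h beside Klrd1, and most of the list was not. Of the 12 measured partners and complex lectins (15 listed), 3 were called lower in CDP at 24 h and 0 higher (3 higher and 4 lower at an unadjusted p under 0.05). Of all genes, 1.35% were called higher and 1.79% lower in CDP at 24 h. The same 3 lectins were called higher in untreated CDP than in untreated MPP, where 1.26% of all genes were. Klrb1b, an inhibitory lectin of the NKR-P1 group, changed by −1.15 ± 0.17 in CDP at 24 h and was 3.19 ± 0.22 higher in untreated CDP. Klri1 and Klri2, which form receptors with Klre1, changed by −1.40 ± 0.12 and −1.20 ± 0.12 in CDP, and were 1.56 ± 0.18 and 1.52 ± 0.11 higher in untreated CDP. Klrk1 (NKG2D) came close, with −0.95 ± 0.14 in CDP. The NKG2 chains that pair with CD94 were dim: Klrc1 stood at 5.42 in CDP at 24 h and 5.50 at 0 h, Klrc2 at 6.18 and 5.97, and Klrc3 at 4.93 and 4.95. Klre1 was at 5.84 and 5.83, and Klrb1c and Klrg1 changed by −0.14 ± 0.09 and 0.17 ± 0.05 in CDP. In MPP limma called 0 of the 12 at 24 h, with 1 higher and 1 lower at an unadjusted p under 0.05. The adaptor Tyrobp (DAP12) was bright in all groups (13.49 in CDP at 24 h and 13.29 in MPP at 24 h).

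**Figure D3:**
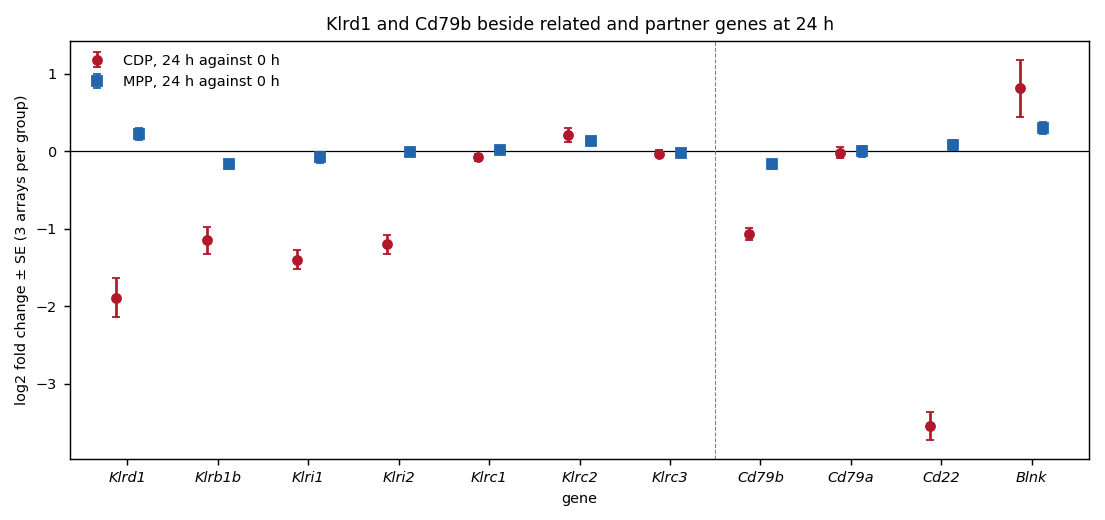
Log2 fold change ± SE at 24 h against 0 h in CDP (red circles) and MPP (blue squares) for Klrd1 and lectins of the NK gene complex (left of the dashed line) and for Cd79b and B cell genes (right), with 3 arrays per group. Klrb1b, Klri1 and Klri2 lie at −1.15 or lower in CDP beside Klrd1, the Klrc genes lie between −0.08 and 0.21, and Cd22 lies at −3.54 while Cd79a is at −0.02.

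Cd72, the B cell co-receptor, rose in MPP early and reached a plateau. Its means in MPP were 8.13, 8.49, 8.89, 9.56, 9.72 and 9.61 at 0, 2, 4, 8, 12 and 24 h. The change was 0.36 ± 0.09 at 2 h (limma adjusted p = 0.0286), 0.77 ± 0.09 at 4 h (4.69e-05) and 1.44 ± 0.09 at 8 h (3.61e-08). It was 1.59 ± 0.09 at 12 h (9.37e-09) and 1.49 ± 0.09 at 24 h (1.38e-08), and passed the fold threshold from 8 h. The last 3 groups overlapped, and the step between 12 and 24 h was −0.10 ± 0.09, unlike that of Cd7, Dpp4 and Cd96. The arrays stood at 9.99, 9.69 and 9.17 in MPP at 24 h, above the 8.24, 8.40 and 7.75 of untreated MPP. In CDP, where Cd72 was bright from the start, the arrays stood at 13.01, 12.85 and 13.09 at 24 h, against 12.02, 12.29 and 12.15 at 0 h. The CDP groups did not overlap, and the change of 0.83 ± 0.09 stayed under the threshold of 1.

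Cd5 made a wave in CDP. Its means there were 9.72, 10.33, 10.81, 11.06, 10.98 and 9.95 at 0, 2, 4, 8, 12 and 24 h. The changes against 0 h were 1.09 ± 0.19 at 4 h, 1.34 ± 0.19 at 8 h and 1.25 ± 0.19 at 12 h, all called, and 0.23 ± 0.19 at 24 h. The call at 4 h was lost without any 1 of 4 arrays (replicates 1 and 3 at 0 h and replicates 1 and 2 at 4 h, 1.01 to 1.04), and that at 12 h without all arrays of replicate 1 (1.26) or replicate 3 (1.13). The call at 8 h was lost without replicate 1 alone (1.31). Between 12 and 24 h it lost 1.03 (−1.03 ± 0.19), a contrast chosen after the values were seen. At 8 h the arrays stood at 11.01, 11.23 and 10.94, all above the 9.63, 10.03 and 9.51 of untreated CDP. At 24 h they stood at 10.35, 9.44 and 10.06 and overlapped the untreated ones, with replicate 2 below all of them and the other 2 replicates above. In MPP Cd5 stayed between 7.91 and 8.35 on average. It stood at 8.44, 8.27 and 8.34 in MPP at 24 h, against 7.97, 7.94 and 7.99 in untreated MPP, with no overlap and a change of 0.39 ± 0.08 (limma adjusted p = 0.00213), small beside the threshold of 1.

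The list of ligands, relatives and effectors of Cd72 and Cd5 had 9 genes, all measured, of which 2 were called lower in CDP at 24 h and 0 higher (4 higher and 4 lower at an unadjusted p under 0.05). Of all genes, 1.35% were called higher and 1.79% lower in CDP at 24 h. Sema4d, the ligand of Cd72, was bright in both cells. It stood at 12.94 in CDP at 24 h against 12.38 at 0 h, and at 12.37 in MPP at 24 h against 11.58 at 0 h, a change of 0.79 ± 0.05 in MPP (limma adjusted p = 3.91e-08, under the fold threshold). Cd6, the relative of Cd5, was near 7 in all groups and changed by −0.19 ± 0.06 in CDP and −0.06 ± 0.04 in MPP, while its ligand gene Alcam was 1.09 ± 0.20 higher in untreated CDP and changed by 0.81 ± 0.11 in CDP at 24 h. The phosphatase gene Ptpn6 changed by 0.14 ± 0.05 in CDP. The 2 called lower were Clec12a, an inhibitory lectin of myeloid cells (−1.01 ± 0.08), and Cd22, an inhibitory co-receptor of B cells. Cd22 fell to 7.14 in CDP at 24 h, against 10.68 in untreated CDP (−3.54 ± 0.18), and was at 6.92 in untreated MPP, with a change of 0.08 ± 0.06 at 24 h. In MPP at 24 h limma called 0 of the 9, with 3 higher and 1 lower at an unadjusted p under 0.05, and between the untreated cells Cd22 and Alcam were called higher in CDP.

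Cd79b, the B cell receptor chain, was the 1 gene in which both cells ended alike. Its means in CDP were 12.24, 11.86, 11.97, 11.88, 11.82 and 11.17 at 0, 2, 4, 8, 12 and 24 h. The drop came mainly after 12 h (−0.65 ± 0.08 between 12 and 24 h), and at 24 h the change was −1.07 ± 0.08 (2.1-fold lower). The arrays stood at 11.31, 11.24 and 10.96 in CDP at 24 h, all below the 12.27, 12.23 and 12.21 of untreated CDP. Without replicate 3 of CDP at 24 h the change was −0.99 and was no longer called. In MPP the arrays stood at 11.02, 11.08 and 11.15 at 24 h, against 11.31, 11.26 and 11.21 at 0 h, a change of −0.17 ± 0.06 that was not called (limma adjusted p = 0.0869). At 24 h the CDP and MPP arrays overlapped and their means differed by 0.08 ± 0.10.

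Its partner chain Cd79a, with which it pairs in B cells, was dim everywhere, at 5.70 in CDP at 24 h, 5.73 in untreated CDP, 5.67 in MPP at 24 h and 5.67 in untreated MPP. Of the 11 measured genes of the B cell receptor and its proximal kinases (14 listed), limma called 0 in CDP at 24 h (2 higher and 2 lower at an unadjusted p under 0.05). It called 0 in MPP at 24 h (4 higher and 1 lower) and 0 between the untreated cells (5 higher and 2 lower). The adaptor gene Blnk was 1.17 ± 0.40 higher in untreated CDP, and the kinase gene Btk changed by −0.78 ± 0.05 in CDP at 24 h, neither called.

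**Figure D4:**
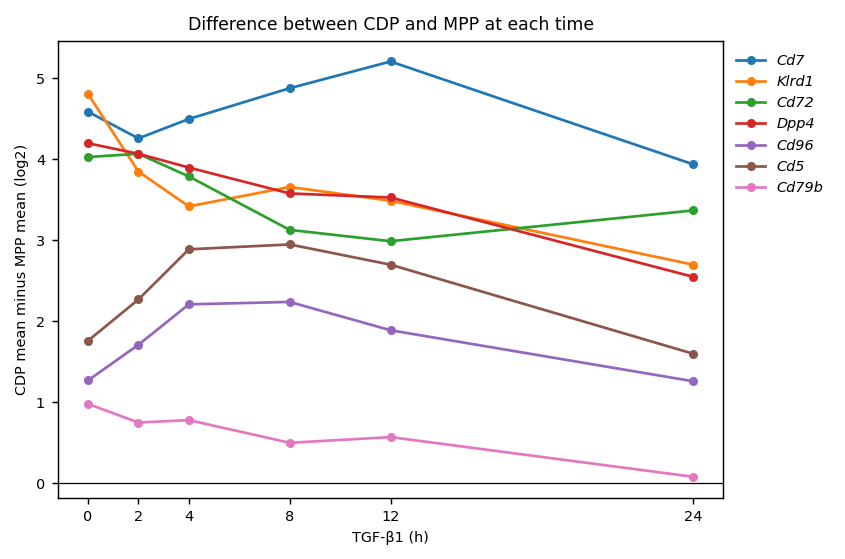
Mean log2 level in CDP minus that in MPP for the 7 genes at 0, 2, 4, 8, 12 and 24 h of TGF-β1 (difference of means of 3 arrays each, no error drawn). The difference is above 0 at every time for all 7, is widest for Cd7 at 12 h (5.21) and comes down to 0.08 for Cd79b at 24 h.

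At 24 h the cells were still apart in 6 of the 7 genes. CDP was higher than MPP by 3.94 ± 0.20 for Cd7, 3.37 ± 0.20 for Cd72, 2.70 ± 0.23 for Klrd1, 2.55 ± 0.24 for Dpp4, 1.60 ± 0.16 for Cd5 and 1.26 ± 0.18 for Cd96, all called, where 2.07% of all genes were called higher. The median of the 7 genes was 2.55, against 4.03 before treatment, and against 0.04 over all genes at 24 h. All 18 CDP arrays lay above all 18 MPP arrays for Cd7, Klrd1, Cd72, Dpp4 and Cd5. For Cd96 the cells were apart at each of the 6 times, and for Cd79b at 5 of the 6.

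The difference of responses, the CDP change minus the MPP change, was called in 4 of the 7 genes at some time. At 24 h it was −2.10 ± 0.28 for Klrd1 and −1.65 ± 0.10 for Dpp4, where 1.13% of all genes were called lower. At 4 h it was −1.38 ± 0.28 for Klrd1 (0.0752% of all genes called lower) and 1.14 ± 0.22 for Cd5 (0.0652% higher). It was 1.20 ± 0.22 for Cd5 at 8 h (0.196% higher), and −1.32 ± 0.28 for Klrd1 and −1.04 ± 0.14 for Cd72 at 12 h (0.471% lower). For Cd96 it was −0.01 ± 0.18 at 24 h, for Cd5 −0.16 ± 0.22, for Cd7 −0.65 ± 0.21, for Cd72 −0.66 ± 0.14 and for Cd79b −0.90 ± 0.11. Without replicate 1 the calls of Klrd1 and Cd5 at 4 h (−1.18 and 1.09), of Cd5 at 8 h (1.19) and of Klrd1 at 12 h (−1.09) were lost, and without replicate 3 those at 4 h (−1.46 and 1.10) and 8 h (1.10). The call of Cd72 was lost without replicate 2 (−0.98). Those of Klrd1 and Dpp4 at 24 h were kept in all 11 alternatives run for them.

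For each gene the 3 others with the most similar levels over the 12 group means were sought among 2098 genes that spanned at least 1 unit. The Pearson r is a description over 12 means that share arrays and are dominated by the difference between the cells. For Cd7 they were Kmo (0.996), a kynurenine pathway enzyme, Slamf7 (0.993), a receptor of NK and other immune cells, and P2ry10 (0.991). Klrd1 was followed by Prss30 (0.993), Phlpp1 (0.992) and its neighbour in the NK complex, Klrb1b (0.990). Cd72 was followed by Tlr9 (0.994), an endosomal receptor for DNA, Slc9a7 (0.994) and Fyn (0.992), a Src family kinase. For Dpp4 they were Slc8a1 (0.989), Kmo (0.986) and Fgd2 (0.986), and for Cd5 Klhl30 (0.989), Hectd2 (0.984) and Evl (0.984). Cd79b was followed by Neurl2 (0.979), Cd22 (0.967) and Alox15 (0.965). Cd96 was followed by Adamts6 (0.981), Itpr2 (0.974) and Rab11fip4 (0.960). Among the 7 themselves, r over the 12 means was 0.98 between Cd7 and Dpp4 and 0.17 between Cd96 and Cd79b. Over the 6 CDP means alone it was −0.98 between Klrd1 and Cd72 and 0.90 between Klrd1 and Cd79b, and over the 6 MPP means alone 0.98 between Cd7 and Dpp4.

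Other lymphoid genes were followed as background to the 7. Of 31 measured lymphoid-associated surface genes (36 listed), 3 were called higher and 1 lower in CDP at 24 h, 3 higher in MPP at 24 h, and 3 higher in untreated CDP than in untreated MPP. Over all genes, 1.35% were called higher and 1.79% lower in CDP at 24 h. In MPP at 24 h 0.717% were called higher, and in untreated CDP against untreated MPP 1.26%. The same shares stand beside the counts of the lists below. Slamf7 was in all 3 groups of calls (1.05 ± 0.19, 1.17 ± 0.15 and 2.70 ± 0.24). The signalling lymphocyte receptor Cd244a rose in both cells (1.43 ± 0.23 in CDP and 1.05 ± 0.10 in MPP), and the inhibitory receptor Btla rose in MPP (1.09 ± 0.07, limma adjusted p = 1.14e-08) with 0.99 ± 0.10 in CDP. Btla (1.87 ± 0.17) and the invariant chain gene Cd74 (3.77 ± 0.21) were higher in untreated CDP. Cd200 rose (1.55 ± 0.27) and Ly9 fell (−1.57 ± 0.07) in CDP.

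Of 23 measured lymphoid regulators (24 listed), 2 were called higher and 1 lower in CDP at 24 h: Il7r, the IL-7 receptor chain (2.22 ± 0.13), Runx3, a Runx factor of T cells and of Langerhans cells (1.44 ± 0.07), and Notch1 (−1.60 ± 0.21). In MPP limma called 0 of them, with 5 higher and 3 lower at an unadjusted p under 0.05, and Runx3 changed by 0.87 ± 0.07 (limma adjusted p = 1.54e-07). In untreated CDP, Tox (2.12 ± 0.12), Bcl11a (1.75 ± 0.12) and Il7r (1.15 ± 0.25) were called higher. Of 12 measured T cell receptor signalling genes (14 listed) limma called 0 in CDP (0 higher and 1 lower at an unadjusted p under 0.05), 0 in MPP (1 and 0) and 0 between the untreated cells (2 and 0).

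Markers of lymphocytes were read beside these results. Of 11 measured T cell markers (14 listed), 1 was called, Cd28, a co-stimulatory receptor gene, lower in CDP at 24 h (−4.68 ± 0.10) and in MPP at 24 h (−2.22 ± 0.10). Cd3e stood at 7.78 in CDP at 24 h and 7.65 at 0 h, and at 7.55 in MPP at 24 h and 7.62 at 0 h. Of 10 NK cell markers 1 was called, Nkg7, at 7.24 in untreated CDP against 11.98 in untreated MPP, and Ncr1 lay between 6.02 and 6.08 in these 4 groups. Of 9 measured B cell markers (10 listed) 1 was called, Cd22, as above, while Pax5 lay between 6.91 and 7.25 and Ebf1 between 5.97 and 6.05. The mean of the T cell list was 6.87 to 7.04 on the CDP arrays at 24 h, against 7.41 to 7.47 on those at 0 h, and 7.03 to 7.10 on the MPP arrays at 24 h, against 7.21 to 7.25 at 0 h. These means include Cd28, and the median change over the T cell list was −0.03 in CDP and −0.06 in MPP. That of the NK list was 6.27 to 6.39 in CDP at 24 h and 6.39 to 6.46 at 0 h, and 6.70 to 6.77 in MPP at 24 h and 6.72 to 6.78 at 0 h. That of the B cell list was 6.49 to 6.55 in CDP at 24 h and 6.85 to 6.90 at 0 h, and 6.36 to 6.39 in MPP at both times. It includes Cd22, and the median change over the list was −0.01 in CDP and 0.02 in MPP. Between untreated CDP and untreated MPP, Cd3e, Ncr1, Pax5, Ebf1 and Cd79a differed by 0.20 or less. Other markers of these lists were higher in untreated CDP, Cd22 by 3.75 ± 0.17, Cd2 by 0.96 ± 0.10, Klrk1 by 0.96 ± 0.12 and Cd28 by 0.85 ± 0.29, of which Cd22 alone was called. In CDP at 24 h Cd2 changed by −0.88 ± 0.12. The part of lymphocytes in the values of the 7 genes was not tested.

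Some markers of the DC lineage were called in the same comparisons as the 7 genes. In untreated CDP, against untreated MPP, Itgax (CD11c) was 3.65 ± 0.17 higher, Spib 2.54 ± 0.25, Flt3 2.14 ± 0.22, Irf4 2.11 ± 0.21 and Siglech 1.62 ± 0.23, while Kit was lower (−2.67 ± 0.23) as was Cd34 (−1.04 ± 0.09). Called higher were 2 of 7 measured plasmacytoid DC markers (8 listed), 3 of 8 conventional DC markers and 2 of 8 progenitor markers. Another 2 progenitor markers were called lower, and Flt3 was counted in both the conventional DC and the progenitor list. Of all genes, 1.26% were called higher and 1.55% lower. In MPP at 24 h, where Cd7, Dpp4, Cd72 and Cd96 were higher, Itgax rose by 2.75 ± 0.11, Siglech by 1.53 ± 0.13 and Flt3 by 1.20 ± 0.10 (limma adjusted p = 1.44e-10, 2.91e-07 and 2.26e-07), 1 of 7 plasmacytoid and 2 of 8 conventional DC markers being called. Of all genes, 0.717% were called higher and 0.487% lower in MPP at 24 h. The other DC markers were not called. Among them Irf7 changed by −0.90 ± 0.18 (limma adjusted p = 0.00191), Bst2 by −0.21 ± 0.06 (0.0177), Irf4 by −0.39 ± 0.17 and Zbtb46 by −0.17 ± 0.06, and the median change was −0.06 over the plasmacytoid and −0.00 over the conventional list. The mean of the conventional DC list was 7.70 to 7.87 on the MPP arrays at 24 h, against 7.33 to 7.40 at 0 h, and that of the plasmacytoid list 7.96 to 8.11, against 7.90 to 8.09. In CDP at 24 h 1 plasmacytoid, 1 conventional DC and 2 progenitor markers were called higher and 1 plasmacytoid marker lower: Siglech (3.22 ± 0.14), Itgax (1.91 ± 0.08), Kit (2.79 ± 0.26) and Il7r, given above, rose and Spib fell (−1.11 ± 0.29). Of all genes, 1.35% were called higher and 1.79% lower in CDP at 24 h. Clec9a and Cd209a, not called, changed by −0.67 ± 0.10 and −0.76 ± 0.06. The mean of the conventional DC list was 9.04 to 9.08 on the CDP arrays at 24 h, against 8.60 to 8.71 at 0 h, that of the plasmacytoid list 9.20 to 9.54, against 8.86 to 9.07, and that of the 8 progenitor markers 11.81 to 12.03, against 11.13 to 11.31. In MPP the progenitor list averaged 11.50 to 11.56 at 24 h and 11.23 to 11.32 at 0 h. The part of these markers' cells in the changes of the 7 genes was not tested.

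Interferon-stimulated genes, a list added after the data were seen (10 of 12 measured), differed between replicates of a group. In CDP their mean was highest on replicate 3 at every time but 4 h. It was 12.71 on replicate 3 of CDP at 2 h, against 8.07 and 8.08 on the other 2 replicates. It was 10.54 on replicate 3 of untreated CDP (8.10 and 8.33 on the others) and 9.05 on replicate 3 of untreated MPP (7.83 and 7.80). In CDP at 4 h it was 10.53, 7.98 and 9.93 on replicates 1, 2 and 3. At 8 h it was 7.69, 7.71 and 9.31, at 12 h 7.61, 7.64 and 8.94, and at 24 h 9.36, 8.22 and 9.94. Cd7 had its lowest CDP value, 11.32, on replicate 3 at 2 h. It was lowest on replicate 3 at every time in CDP. This included 4 h, where the mean of the interferon-stimulated genes was highest on replicate 1. At 24 h limma called 0 of these genes in CDP (0 at an unadjusted p under 0.05) and 0 in MPP (0 higher and 4 lower at an unadjusted p under 0.05). Without replicate 3 the call of Cd79b in CDP at 24 h was lost (−0.97), and the changes of Cd96, Cd7 and Klrd1 in CDP and of Cd96, Cd7, Cd72 and Dpp4 in MPP at 24 h stayed called.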

How the data were processed

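The deposited values were log2 levels, 1 per probe set and array, which the authors made with Affymetrix Power Tools and RMA (per the submitters' processing notes, versions not given in the sources used here). RMA corrects the background, gives all arrays the same distribution and summarises probes, so a change is relative to the other genes of the array and that of a dim gene is compressed. The study itself used other summaries and a time course test that are not used here. It also ran limma by time point, with time and replicate as factors, and the thresholds of that test are those used here. Of 35556 probe sets, 21789 carried 1 symbol, 1621 several and 12146 none. Where a gene had several (999 genes), the brightest was kept, which left 19938 genes.

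The tests were two-sided and used limma 3.58.1 in R 4.3.3 (lmFit, eBayes) with Benjamini-Hochberg adjustment. Within a cell type (18 arrays) each time was set against 0 h, and the replicate number was the block. CDP and MPP were compared on 36 arrays without a block, and the difference of responses on 36 arrays with the replicate within cell type as a block. The numbers pair the arrays within a cell type by their residuals: the lowest correlation of an array with the same-numbered 0 h array was 0.212 in CDP and 0.189 in MPP. Same-numbered CDP and MPP arrays also correlated, at 0.283 to 0.513 at 0 h and 0.148 to 0.305 at 24 h. A block shared by both cell types left the differences between CDP and MPP, and their calls, as they were. Replicates of a group had a median SD per gene of 0.0637 to 0.0817. The number of arrays limits the precision.

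The members and the gene lists were chosen with earlier results of these data known. Each of the 7 members is named, with the 3 genes most like it, and from the lists the genes that were called and the partners or ligands of a member. Alternatives were the block, array centring, the probe set rule, a filter on dim genes (highest group mean under 7), the variance prior, the arrays fitted, and leaving out replicates and single arrays. The fits were tested on simulated data.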

Additional observations from a re-analysis of the deposited data

Results flagged for a closer look

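The change in CDP and the change in MPP differed past the threshold, by the test of the difference itself, in 7 cases. The direction of these genes may have guided the choice of the list, so the values stand as a description. For Klrd1 the CDP change minus the MPP change was −1.38 at 4 h, −1.32 at 12 h and −2.10 at 24 h, with the gene lower in CDP after TGF-β1 and near its 0 h level in MPP. For Dpp4 it was −1.65 at 24 h, where the gene was 0.36 lower than at 0 h in CDP (log2 change −0.36) and 1.29 higher in MPP. Cd5 had 1.14 at 4 h and 1.20 at 8 h, from its wave in CDP, and Cd72 had −1.04 at 12 h, from its rise in MPP. Groups of 3 arrays are too small for a test of 1 outlying value within a group, and none was run.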

How the results depend on the processing

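Of the values of single genes under the alternatives, 1517 kept their direction and side of the threshold, 49 lost the call, 5 gained it and 32 changed sign. Of the counts of genes called, 407 stayed within 1.5 times and 51 did not. The cause was not tested. Without the replicate block the genes called lower in CDP became 0 at 4 h and 0 at 12 h, and for the difference of responses 0 higher and 0 lower at 4 h and 0 lower at 12 h. The block also decided the call of Dpp4 in MPP at 24 h (1.29, adjusted p = 0.0168 without it), and no other call in MPP. With arrays centred on their median, 0 were lower in CDP at 4 h, and the differences had 0 lower at 4 h, 2 higher at 8 h (Cd96 at 1.03 added) and 1 lower at 12 h. With a trended, robust prior 0 were lower in CDP at 4 h and 0 at 12 h, and 0 lower in the difference at 4 h. All 36 arrays in 1 fit called 1 lower in CDP at 2 h (Klrd1).

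Leaving out replicates or arrays gave 1 to 2 higher and 0 to 1 lower in CDP at 4 h, 1 to 2 higher at 8 h, 1 to 2 higher and 0 to 1 lower at 12 h, and 1 to 2 lower at 24 h (Cd79b without replicate 3). In the differences it gave 0 to 1 higher and 0 to 1 lower at 4 h, 0 to 1 higher and 0 to 1 lower at 8 h, and 0 to 1 higher and 1 to 2 lower at 12 h. Leaving out single arrays in the differences was added after the data were seen. Of the values that changed sign, all were uncalled, and in the main fit Cd5 in CDP at 24 h (0.23) lay furthest from 0. The ranges of the values that changed sign, when replicates or arrays were left out, were as follows. Cd5 in CDP at 24 h ran between −0.02 and 0.64. In MPP, Cd7 ran between −0.08 and 0.19 at 2 h, −0.19 and 0.05 at 4 h, −0.14 and 0.14 at 8 h (−0.02 when centred) and −0.06 and 0.19 at 12 h. There Klrd1 ran between −0.17 and 0.05 at 2 h, Cd5 between −0.11 and 0.02 at 4 h, Dpp4 between −0.08 and 0.11 at 8 h and −0.01 and 0.20 at 12 h, and Cd79b between −0.05 and 0.02 at 12 h. Cd79b between CDP and MPP at 24 h ran between −0.02 and 0.22. In the differences of responses, Cd72 ran between −0.09 and 0.19 at 2 h, Cd7 between −0.19 and 0.03 at 4 h, Cd96 between −0.11 and 0.06 at 24 h (0.01 when centred) and Cd5 between −0.36 and 0.23 at 24 h.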
